A study of Mus musculus with 6 samples.

Results

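The caspase genes Casp1, Casp2, Casp6, Casp8 and Casp9, the pore-forming gasdermin gene Gsdmd, the sensor gene Nlrp3 and the adaptor gene Pycard, 8 genes of the caspase and inflammasome machinery, were read by name in a deposited table of 54532 genes, in which each of the 8 had 1 row. RNA came from the cerebral cortex of mice (Mus musculus) aged 12 months, with 3 libraries from wild-type (WT) animals and 3 labelled Fam69c KO, the genotype that the series' design writes as Fam69c-/-, here called knockout-labelled libraries. The labels name no treatment, strain or sex, do not say which part of Fam69c was deleted, and do not tell whether each library is a separate mouse. P-values therefore measure only the spread between these samples, which may be technical. Values are FPKM, fragments per kilobase of gene model scaled to library size, and fold changes compare the knockout-labelled with the WT libraries.

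An inflammasome forms when a sensor such as NLRP3 recruits the adaptor ASC, the product of Pycard, which gathers pro-caspase-1 until it cuts itself into its active form. Active caspase-1 matures interleukin-1 beta and interleukin-18 and cuts gasdermin D, whose amino-terminal part then forms pores in the plasma membrane and causes pyroptosis. Caspase-8 starts death receptor apoptosis, caspase-9 starts mitochondrial apoptosis on the APAF1 apoptosome, caspase-2 is activated on the PIDDosome, and caspase-6 is an effector caspase. In the brain the inflammasome genes are known mainly from microglia. The title of the series names suppression of inflammasome activation by FAM69C, and the comparison asks whether the RNA of these components differs with genotype. Activation as described above is assembly and cutting of proteins, which was not measured here.

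None of the 8 genes passed the test between genotypes. Nor did any other gene, at 0% of the 15694 genes averaging 0.5 FPKM or more and 0% of 32400 without that filter. The largest relative differences of the means were in Casp8, at 149% of WT in knockout-labelled libraries, and in Nlrp3, at 62.4% of WT, and in both the groups overlapped. Casp9, the most abundant of the 8, stood at 101% of WT. Levels between genes differed far more than levels between genotypes, from 5.96 FPKM for Casp9 to 0.192 FPKM for Nlrp3 over the 6 libraries.

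Libraries held 30935326 to 35065884 reads, as recovered from the steps of the FPKM values. Fam69c itself was read in every library, at 2.03, 1.57 and 2.08 FPKM in WT and 1.54, 1.84 and 1.42 FPKM in knockout-labelled libraries, so the groups overlapped and its RNA does not check the labels. Markers of striatal neurons summed to 156 FPKM in WT replicate 3 and 212 FPKM in Fam69c KO replicate 1, against 350 to 455 FPKM in the other 4 libraries. Choroid plexus markers summed to 3.53 to 4.65 FPKM in WT and 4.71 to 10.3 FPKM in knockout-labelled libraries, a gap carried by Ttr (2.10, 3.10 and 2.79 FPKM in WT, 8.91, 7.58 and 3.50 FPKM in the others). The other 5 choroid plexus markers summed to 0.973 to 1.55 FPKM and 1.20 to 1.59 FPKM, which overlapped. The part of these tissues in the values below was not tested. The cortical marker Slc17a7 and the other 5 excitatory neuron markers summed to 836 to 881 FPKM across the libraries.

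Promoters were matched for 7 of the 8 genes, all but Gsdmd, among 32851 RefSeq windows (GRCm38.p6), and the 250 bases before the annotated start are considered here. The 3 shown are those of the gene with the highest level, of the inflammasome protease and of the gene with the lowest level, 5′ to 3′ on the plus strand, with each GC box (GGGCGG or its reverse complement CCGCCC, searched on both strands, runs that overlap counted separately) in capitals.
Casp9, chr4:141793362-141793611: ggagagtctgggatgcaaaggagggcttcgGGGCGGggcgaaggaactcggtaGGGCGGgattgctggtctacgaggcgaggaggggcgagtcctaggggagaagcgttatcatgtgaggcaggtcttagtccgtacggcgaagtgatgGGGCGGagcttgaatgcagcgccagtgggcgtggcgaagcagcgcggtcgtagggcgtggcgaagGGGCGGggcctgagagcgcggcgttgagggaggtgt
Casp1, chr9:5298267-5298516: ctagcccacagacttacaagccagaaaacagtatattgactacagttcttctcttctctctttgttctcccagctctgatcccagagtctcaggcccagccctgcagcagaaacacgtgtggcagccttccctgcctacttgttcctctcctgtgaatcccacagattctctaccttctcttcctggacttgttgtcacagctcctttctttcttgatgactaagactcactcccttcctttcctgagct
Nlrp3, chr11:59541319-59541568: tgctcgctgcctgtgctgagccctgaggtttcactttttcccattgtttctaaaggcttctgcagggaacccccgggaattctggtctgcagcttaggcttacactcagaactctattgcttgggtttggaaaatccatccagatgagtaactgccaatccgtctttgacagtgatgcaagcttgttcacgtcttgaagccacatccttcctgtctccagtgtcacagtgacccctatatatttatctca
The Casp9 window held 4 GC boxes and 25 CpG dinucleotides, while those of Casp1 and Nlrp3 held 0 boxes and 1 and 4 CpGs. Casp2 and Casp6 each had 1 box, with 17 and 11 CpGs, and Casp8 and Pycard had 0, with 5 and 2 CpGs. The Casp8 window (chromosome 1, 58802252 to 58802501) lies inside the Casp8 row, which starts at 58795374, so it does not describe the start of that gene model. A second annotated Nlrp3 start had 0 boxes and 3 CpGs. Over all windows 32.7% held a GC box and the median was 6 CpGs, so Casp2, Casp6 and Casp9 lay above that median and the other 4 matched genes below it. A match is a description of letters and says nothing of binding.

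In order of mean level over the 6 libraries, Casp9 (5.96 ± 0.241 FPKM, SD, n = 6) was followed by Casp1 (1.74 ± 0.357), Casp2 (1.55 ± 0.216), Gsdmd (0.921 ± 0.133), Casp8 (0.618 ± 0.180), Casp6 (0.538 ± 0.0770), Pycard (0.490 ± 0.0799) and Nlrp3 (0.192 ± 0.0671). Casp9 lay above Casp1, Casp2 above Gsdmd and Pycard above Nlrp3 in 6 of 6 libraries with ranges that did not meet. The neighbours Casp1 and Casp2, Gsdmd and Casp8, Casp8 and Casp6, and Casp6 and Pycard had ranges that overlapped and are not ordered beyond their spread. Among the 15694 genes above the filter of 0.5 FPKM in the mean, Casp9 stood at the 55.0th percentile and Casp1 at the 25.4th.

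The order depends on the length by which reads are divided. For all 8 genes the length in the table equalled the union of all exons in GENCODE M21, retained introns included, which for Casp6 was 5584 bases against 1456 bases of its coding transcript and for Casp2 7057 against 3529 bases. Divided by the length of the transcript with the longest coding sequence instead, a setting chosen after the data were seen, Casp6 came to 2.06 FPKM and Casp2 to 3.11 FPKM, both above Casp1 at 1.74 FPKM. Casp9 remained the highest, at 7.95 FPKM, and Nlrp3 the lowest, at 0.193 FPKM. All reads of a row were kept, with any that lie outside that transcript, so these values are upper limits for it. The reads in retained introns were not separated. The Pycard model is 3800 bases long with a coding sequence of 579 bases. The choice of length leaves the ratio of FPKM between genotypes as it was.

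**Figure D1:**
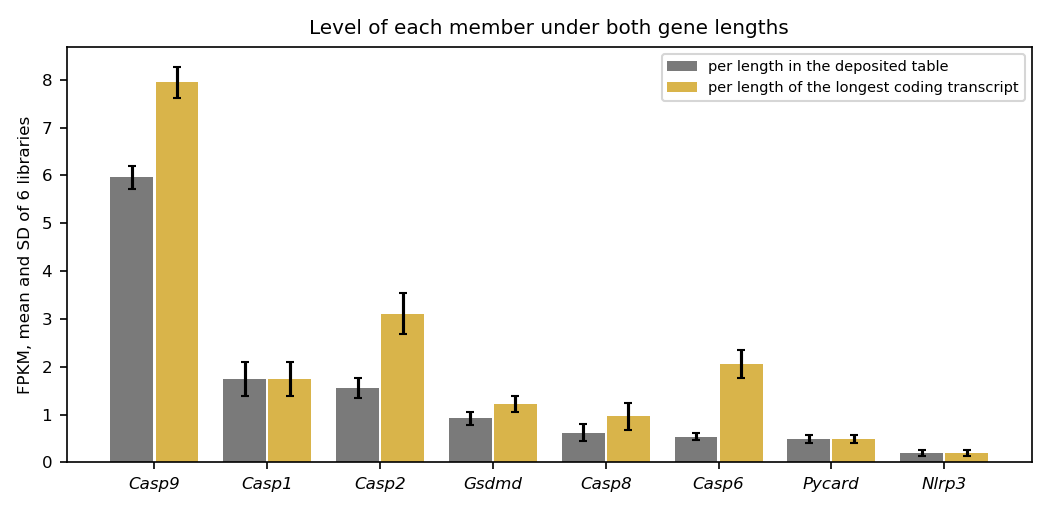
Mean FPKM of the 8 genes over 6 libraries (vertical axis, bars from 0, error bars SD), per kilobase of the deposited gene length (grey) and of the transcript with the longest coding sequence (yellow). Casp6 moved from 0.538 to 2.06 FPKM and Casp2 from 1.55 to 3.11 FPKM, while Casp9 is highest and Nlrp3 lowest under both lengths. The yellow bars keep all reads of a row and are upper limits.

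The sensor gene Nlrp3 (ENSMUSG00000032691, mm10 chromosome 11, 59541568 to 59566956, plus strand) read 0.252, 0.233 and 0.223 FPKM in WT replicates 1, 2 and 3 and 0.116, 0.229 and 0.0963 FPKM in Fam69c KO replicates 1, 2 and 3. Replicates 1 and 3 labelled Fam69c KO lay below every WT library, while replicate 2 lay within the WT range, so the groups overlapped. Behind these values stand 32, 29 and 30 reads for WT against 16, 31 and 14 for the knockout-labelled libraries. For the 14 reads of Fam69c KO replicate 3, the lowest library, the exact Poisson 95% interval was 0.0527 to 0.162 FPKM. For the 32 reads of WT replicate 1, the highest library, it was 0.173 to 0.356 FPKM. The interval of Fam69c KO replicate 3 overlapped those of WT replicates 2 (0.156 to 0.335 FPKM) and 3 (0.150 to 0.318 FPKM). Those of Fam69c KO replicates 1 (0.0665 to 0.189 FPKM) and 2 (0.156 to 0.325 FPKM) overlapped every WT interval. All these intervals cover counting error only. Nlrp3 lay below the filter of 0.5 FPKM, and its FPKM gave a two-sided exact permutation p of 0.2, where 3 against 3 libraries cannot go below 0.1. In limma without a filter its log2 fold change on FPKM + 0.5 was -0.19 (95% interval -0.42 to 0.04, adjusted p = 0.959 over 32400 genes). The size of that estimate rests on the pseudocount, at -0.48 with 0.1 and -0.76 on recovered reads with voom, whose interval ran from -1.57 to 0.04. Without Fam69c KO replicate 2, the knockout-labelled library within the WT range, the log2 fold change was -0.28 (limma adjusted p = 0.823, unadjusted p = 0.00381). That was the only 1 of 15 alternatives with an unadjusted p under 0.05. Over the alternatives tried the adjusted p ran from 0.687 to 0.996.

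Pycard, encoding the adaptor ASC (ENSMUSG00000030793, chromosome 7, 127989708 to 127993867, minus strand), read 0.404, 0.600 and 0.476 FPKM in WT and 0.435, 0.576 and 0.448 FPKM in knockout-labelled libraries, from 48 to 73 reads each. In both groups replicate 2 was the highest library, and each group spanned nearly the same range. The group means were 0.494 ± 0.0991 and 0.486 ± 0.0780 FPKM (SD, n = 3 each; exact permutation p = 1). In limma without a filter the log2 fold change was -0.0087 (95% interval -0.32 to 0.30, adjusted p = 0.999), and its sign turned in 6 of 15 alternatives, TPM scaling among them at 0.0025. A gene on the other strand, Gm45205, overlaps the Pycard row over 599 bases and held at most 13 reads in a library.

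Casp1 (ENSMUSG00000025888, chromosome 9, 5298517 to 5307265, plus strand), encoding the protease of the inflammasome, read 1.82, 1.37 and 2.30 FPKM in WT and 1.93, 1.66 and 1.36 FPKM in knockout-labelled libraries, from 63 to 114 reads. The highest library was WT replicate 3 and the lowest was Fam69c KO replicate 3, next to WT replicate 2. The log2 fold change was -0.10 (SE 0.17, 95% interval -0.51 to 0.30, limma adjusted p = 0.999). Without WT replicate 3 it was 0.04, so the sign rests on that library. Casp1 shared 0 of its 1448 windows of 50 bases with transcripts of other genes in GENCODE M21. Its neighbours Casp4, which encodes the caspase that senses cytosolic lipopolysaccharide and also cuts gasdermin D, and Casp12 held 3 to 16 and 19 to 44 reads per library.

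Gsdmd (ENSMUSG00000022575, chromosome 15, 75862327 to 75867408, plus strand), whose product is the pore former cut by caspase-1, read 0.741, 0.836 and 1.05 FPKM in WT and 0.844, 0.984 and 1.07 FPKM in knockout-labelled libraries. The ranges of the groups overlapped, with WT replicate 3 above 2 of the 3 libraries labelled Fam69c KO. The log2 fold change was 0.09 (95% interval -0.21 to 0.40, limma adjusted p = 0.999), from 55 to 91 reads per library. It was 0.02 without WT replicate 1, 0.04 without Fam69c KO replicate 3, 0.15 without Fam69c KO replicate 1, 0.18 without WT replicate 3 and 0.24 without both WT replicate 3 and Fam69c KO replicate 1. In the same fit Gsdme, another gasdermin gene, had a log2 fold change of 0.05 (95% interval -0.15 to 0.25, limma adjusted p = 0.999).

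**Figure D2:**
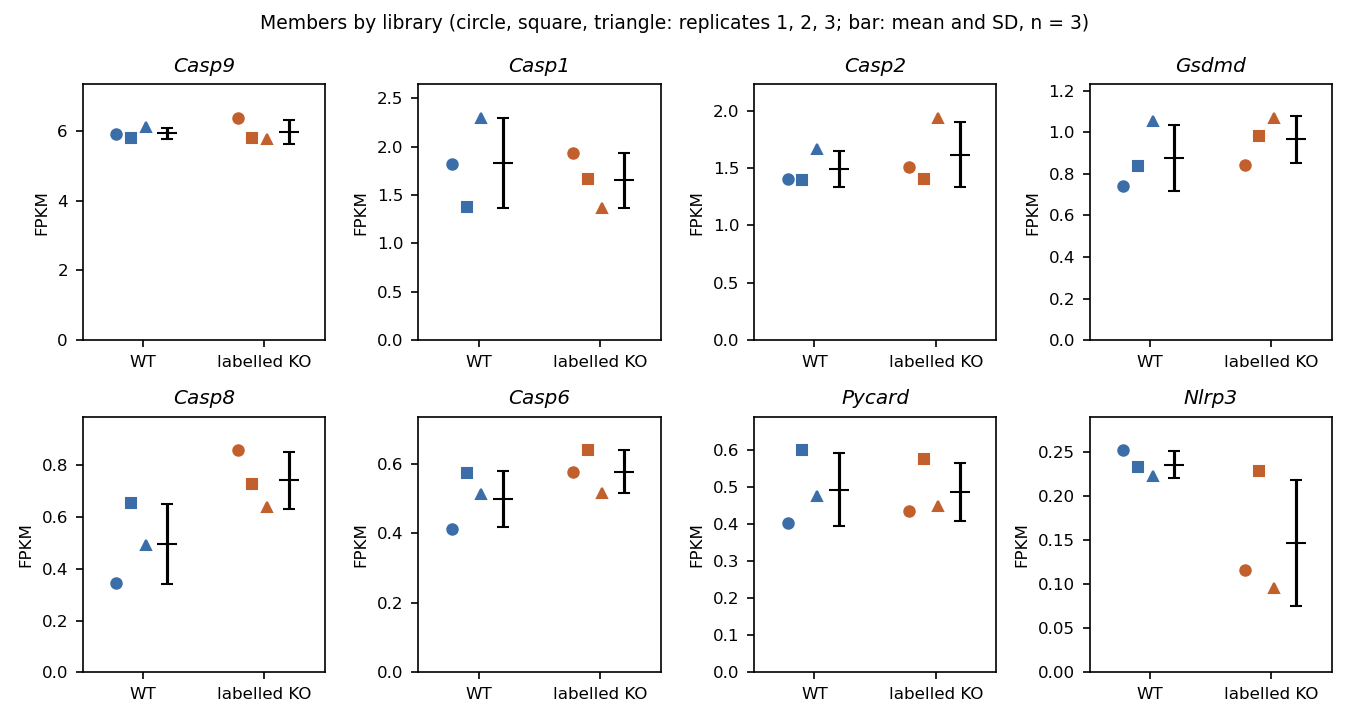
FPKM of each gene (vertical axes from 0, each panel with its own scale) in the 3 WT libraries (blue) and the 3 libraries labelled Fam69c KO (orange), with circles, squares and triangles for replicates 1, 2 and 3 and black bars for mean and SD. In Nlrp3, replicates 1 and 3 labelled Fam69c KO sit at 0.116 and 0.0963 FPKM, below the WT libraries, and replicate 2 at 0.229 FPKM among them.

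Casp8 (ENSMUSG00000026029, chromosome 1, 58795374 to 58847503, plus strand), the initiator caspase of death receptors, read 0.343, 0.653 and 0.490 FPKM in WT and 0.857, 0.726 and 0.637 FPKM in knockout-labelled libraries. WT replicate 1, with 31 reads, was the lowest library and Fam69c KO replicate 1, with 84 reads, the highest, and WT replicate 2 lay just above Fam69c KO replicate 3. The log2 fold change was 0.32 (SE 0.16, 95% interval -0.05 to 0.70, limma adjusted p = 0.999, unadjusted p = 0.0796). It ran from 0.21 without WT replicate 1 to 0.44 without WT replicate 2, and was 0.62 with voom on recovered reads and 0.52 with a pseudocount of 0.1. The unadjusted p was under 0.05 in 3 of 16 alternatives, with a smallest value of 0.0379, and the adjusted p ran from 0.556 to 1.00. A share of 4.37% of the 50-base windows of Casp8 also occurred in the pseudogene Gm20257 on the same chromosome. Gm20257 held 10, 19 and 40 reads in the WT libraries against 31, 33 and 28 in the others. It was lowest in WT replicate 1 as Casp8 was, but highest in WT replicate 3, where Casp8 held 47 reads. In Fam69c KO replicate 1, the highest library for Casp8, it held 31 reads. The part of shared reads in the Casp8 values was not tested.

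Casp9 (ENSMUSG00000028914, chromosome 4, 141793612 to 141815976, plus strand), the initiator caspase of the apoptosome, read 5.91, 5.79 and 6.11 FPKM in WT and 6.38, 5.80 and 5.77 FPKM in knockout-labelled libraries, from 924 to 1124 reads. All 6 libraries lay within a 1.11-fold range. The log2 fold change was 0.0098 (95% interval -0.13 to 0.15, limma adjusted p = 0.999), so differences beyond 1.11-fold higher or 0.911-fold, on the FPKM + 0.5 scale, lay outside the interval. Its sign turned in 3 of 17 alternatives, at -0.03 without Fam69c KO replicate 1, -0.0063 without WT replicate 2 and -0.014 without both WT replicate 3 and Fam69c KO replicate 1.

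Casp2 (ENSMUSG00000029863, chromosome 6, 42264985 to 42282508, plus strand), the caspase of the PIDDosome, read 1.40, 1.39 and 1.67 FPKM in WT and 1.51, 1.41 and 1.94 FPKM in knockout-labelled libraries, from 302 to 490 reads. Replicate 3 was the highest library of each group. The log2 fold change was 0.09 (95% interval -0.21 to 0.38, limma adjusted p = 0.999), and it was -0.02 without Fam69c KO replicate 3.

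The effector caspase gene Casp6 (ENSMUSG00000027997, chromosome 3, 129901425 to 129914103, plus strand) read 0.413, 0.572 and 0.513 FPKM in WT and 0.576, 0.639 and 0.515 FPKM in knockout-labelled libraries. The groups overlapped, with WT replicate 2 between Fam69c KO replicates 3 and 1. The log2 fold change was 0.11 (95% interval -0.20 to 0.42, limma adjusted p = 0.999), from 72 to 119 reads per library. It was 0.05 without WT replicate 1, 0.07 without Fam69c KO replicate 2, 0.18 with a pseudocount of 0.1 and 0.23 with voom on recovered reads.

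**Figure D3:**
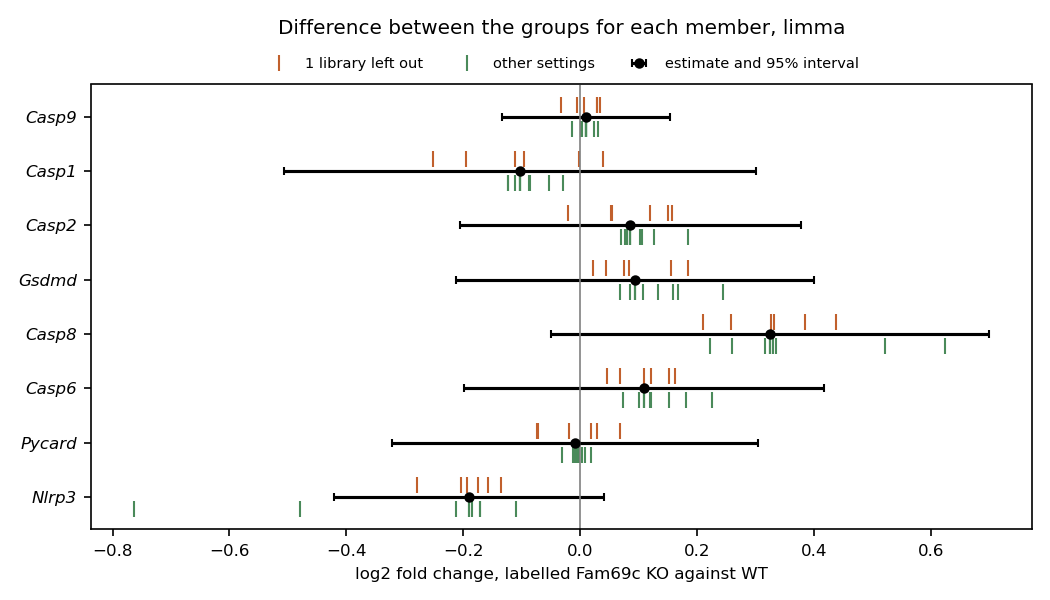
Log2 fold change of each gene, libraries labelled Fam69c KO against WT (horizontal axis), with black points and bars for the limma estimate on log2(FPKM + 0.5) and its 95% interval, orange ticks with 1 library left out and green ticks under other settings. Every black interval spans 0. The Casp8 ticks lie between 0.21 and 0.62 and the Nlrp3 ticks between -0.76 and -0.11.

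Of the 6 genes above the filter, 0 passed an adjusted p of 0.05 in limma, where 0% of all 15694 genes did, and 0 had an unadjusted p under 0.05, where 3.82% (599 genes) did. Without a filter Nlrp3 and Pycard had an unadjusted p of 0.0899 and 0.948, both over the 0.05 that 3.75% of 32400 genes fell under. With voom 0 genes passed and 533 had an unadjusted p under 0.05. The estimates were above 0 for 5 of the 6, with a median of 0.09, against 48% and a median of -0.0042 over all genes tested. All 8 genes had overlapping groups, where the groups did not overlap for 7.77% of the 32400 genes above 0 in any library. The 95% interval reached 0.14 log2 units to either side for Casp9 and 0.40 for Casp1, against a median of 0.21 over all genes tested.

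The spread within groups was set against that of counting alone, as the Pearson chi-square of reads within the groups per degree of freedom, which is 1 for counting error only. It was 7.94 for Casp2 and 4.07 for Casp1, against a median of 4.20 over genes tested, and between 1.67 and 3.01 for the other 6. At a given relative spread this ratio rises with the number of reads, so a low value need not mean little spread. Gsdmd, at 1.67, was the closest of the 8 to counting error alone, yet its SD in WT was 18.2% of the mean. For Casp9, at 2.11, the SD in WT was 2.69% of the mean.

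Across the 6 libraries the pairs of these genes had correlations of either sign. Counting error weakens r for genes with few reads, and pairs of other genes were not taken as a background. Over their 28 pairs, Pearson's r of log2(FPKM + 0.5) ran from -0.70 to 0.87 with a median of -0.0093, and 14 pairs were positive. The highest was that of Casp6 and Casp8 (r = 0.87, Spearman's rho = 0.94) and the lowest that of Casp2 and Nlrp3 (r = -0.70, rho = -0.89), with both values resting on 6 points that share depth and dissection and given as a description. By a rule of the 1 most similar gene among 15693 over the 6 libraries, Casp1 was matched with Ddc (r = 0.99), Casp2 with Creld2 (0.99), Casp6 with 1700065J18Rik (0.99), Casp8 with Samd4 (1.00), Casp9 with Zbtb45 (0.99) and Gsdmd with Chn1os3 (0.99). With 6 libraries, 75 to 390 genes reached an r above 0.9 with each of these. Spearman's rho was 0.77 for Casp2 and Creld2, against 0.94 or more for the other matches.

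The rest of the pathway was taken from 7 lists holding 74 genes, of which 73 had a row and 46 lay above the filter. In limma 0 of the 46 passed an adjusted p of 0.05 in either direction, and 1 higher and 1 lower had an unadjusted p under 0.05, against 1.63% higher and 2.19% lower over all genes. The median log2 fold change of the 46 was -0.02. The groups did not overlap for 7 of the 46 (15.2%), where the share over all genes tested was 8.87%.

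Of 11 other inflammasome sensor genes, 0 lay above the filter. They summed to 1.33 to 1.56 FPKM in WT and 1.49 to 1.57 FPKM in knockout-labelled libraries, and Mefv, the pyrin gene, had 0 reads in every library. Among 14 regulators and interleukin substrates with a row, 6 of the 11 above the filter were higher and 5 lower. Il18, which encodes an interleukin precursor cut by caspase-1, had the smallest p, with a log2 fold change of 0.24 (limma unadjusted p = 0.00764, adjusted p = 0.999). Il1b, the gene of interleukin-1 beta, lay below the filter and went the other way, at 0.236 ± 0.0591 FPKM in WT and 0.158 ± 0.0774 FPKM in knockout-labelled libraries. It held 7 to 19 reads per library, and its groups overlapped. Serpinb1a, an inhibitor of neutrophil proteases, read 2.40 ± 0.0869 and 3.04 ± 0.630 FPKM, the interferon-induced GTPase gene Gbp2 0.870 ± 0.0656 and 1.20 ± 0.374 FPKM, and Ninj1, whose product ruptures the membrane of dying cells, 7.73 ± 0.510 and 7.13 ± 0.908 FPKM.

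Casp14, a caspase of the skin, had 0 reads in every library. Of 17 genes of the apoptosome and of mitochondrial apoptosis, 16 lay above the filter, 6 higher and 10 lower. Among them Bcl2l1, encoding the survival protein BCL-XL, read 24.3 ± 1.17 FPKM in WT and 22.1 ± 0.590 FPKM in knockout-labelled libraries (log2 fold change -0.13, limma unadjusted p = 0.0423, adjusted p = 0.999). The survival gene Bcl2 read 2.18 ± 0.0915 and 2.42 ± 0.132 FPKM, the mitochondrial protease gene Htra2 6.14 ± 0.232 and 5.51 ± 0.489 FPKM, and the pore gene Bak1 3.68 ± 0.158 and 4.04 ± 0.376 FPKM. None of these passed.

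Among 11 adaptors and receptors of the death receptor and PIDDosome complexes, 8 lay above the filter, 2 higher and 6 lower. Cradd, which links PIDD1 to caspase-2, read 1.00 ± 0.114 and 0.829 ± 0.0483 FPKM, and Cflar, the decoy that holds caspase-8 in check, 1.43 ± 0.0827 and 1.30 ± 0.122 FPKM. The adaptor genes Tradd and Traf2 had log2 fold changes of 0.10 and -0.04. Of 8 caspase substrates, all above the filter, 3 were higher and 5 lower, with Parp1, the DNA repair enzyme cut in apoptosis, at 15.3 ± 0.401 and 14.3 ± 0.470 FPKM, Lmna at -0.13, the spectrin gene Sptan1 at -0.05 and Rock1 at 0.05 on the log2 scale of the fold change.

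**Figure D4:**
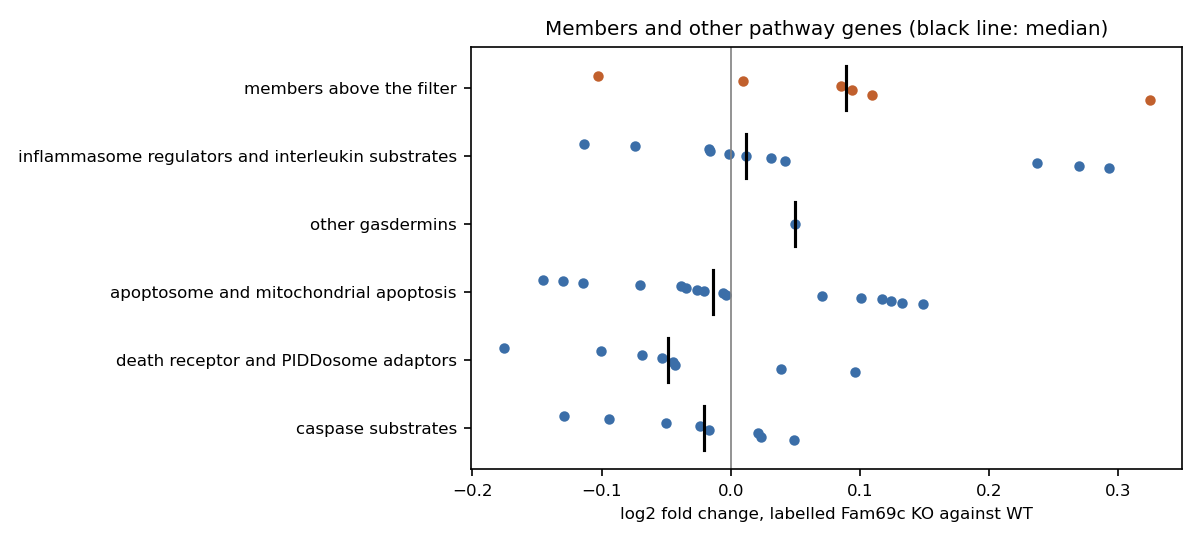
Log2 fold change on FPKM + 0.5, libraries labelled Fam69c KO against WT (horizontal axis), for the 6 of 8 genes above the filter (orange) and the genes of 5 other pathway lists above it (blue), with black lines at each median. Casp8, at 0.32, is the rightmost point, and the blue points lie between -0.18 and 0.29.

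Microglia are known to express the inflammasome genes, and in bulk tissue fewer cells of a type and less RNA per cell cannot be told apart. All 15 microglial markers lay above the filter, 2 higher and 13 lower in knockout-labelled libraries, with 0 past the threshold, as over all 15694 genes tested. They summed to 205, 216 and 171 FPKM in WT and 194, 198 and 176 FPKM in knockout-labelled libraries. WT replicate 3 had the lowest microglial sum and the highest Casp1 level, while Fam69c KO replicate 3, the lowest in Nlrp3 and in Casp1, had the second lowest microglial sum. The 8 markers of perivascular macrophages and monocytes summed to 2.65 to 2.98 FPKM in WT and 2.65 to 2.70 FPKM in knockout-labelled libraries, and 8 neutrophil markers to 0.260 to 2.02 and 0.398 to 3.47 FPKM. No microglial marker was at 0 in any library, while 2 of the macrophage and monocyte markers and 7 of the neutrophil markers were at 0 in some. The part of these cells in the Nlrp3 and Casp1 values was not tested.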

How the data were processed

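Per the labels' protocols, cortex RNA was taken up in Trizol and made into libraries with an Illumina TruSeq kit. The authors deposited FPKM values for 54532 genes, with no counts. Bowtie, with no version, and the mm10 build are named in the submitters' processing notes, while the counter, its strand setting and its annotation were not given in the sources used here. Of the rows, 98.1% have the positions of GENCODE M21. Multiplied by gene length, 100% of the values above 0 in every library came out as whole reads (tolerance 0.001). The library sizes behind the FPKM values were not exactly the totals of these reads.

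Fold changes are on the log2(FPKM + 0.5) scale, which understates those of low genes. The 15694 genes averaging 0.5 FPKM or more were fitted with limma 3.58.1 in R 4.3.3 (variance trend, no block, two-sided, Benjamini-Hochberg adjustment, threshold 0.05). Nlrp3 and Pycard lay below the filter and were read from the same fit over all 32400 genes above 0, and by exact permutation tests (scipy 1.17.1). The fit was tested on simulated data. Genes were named by rule: all 8 members, Fam69c, the most similar gene of each member, and any row whose position overlaps a member, such as Gm45205. From each pathway list the rule took up to 4 genes with the smallest p and any with an unadjusted p under 0.05. Mefv, Il1b, Casp4, Casp12, Casp14, Gm20257, Slc17a7, Ttr and Gm47283 were named after their values were seen. The members and lists were chosen with earlier results of these data known. Some genes that this rule names are not reported here. Values with ± are mean and SD. Replicates were not pooled, and all pairs of libraries differed by more than sampling noise, by 2.95 times in median chi-square for the closest pair. Alternatives changed the pseudocount, filter, scaling, variance trend, weights or model (replicate block, voom on the reads), or left out libraries. Plots were drawn with matplotlib 3.10.9.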

Additional observations from a re-analysis of the deposited data

How the results depend on the processing

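No gene of the 8 passed an adjusted p of 0.05 under any alternative run. Casp6, Casp8, Gsdmd and Nlrp3 kept their direction under every alternative that could be run for them. With 1 library left out, the log2 fold change ran from -0.25 to 0.039 for Casp1, -0.020 to 0.16 for Casp2, -0.034 to 0.033 for Casp9 and -0.074 to 0.067 for Pycard, so each of these 4 changed sign. Pycard also turned to 0.0025 with TPM scaling, 0.0076 with sample weights and 0.018 without both WT replicate 3 and Fam69c KO replicate 1, the libraries lowest in striatal markers, a setting in which Casp9 was -0.014. The cause of these turns was not tested.

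Over all genes the count past the threshold was 0 except without that pair, where it was 1, Gm47283. The count at an unadjusted p under 0.05, 599, was 1214 with no filter, where more genes were tested, 1420 with sample weights and 2092 without the pair, and ran from 426 to 1023 with 1 library left out, highest without WT replicate 3 and 901 without Fam69c KO replicate 1. Of the 599, 42.7% were higher in the libraries labelled Fam69c KO, against 57.9% with TPM scaling and 56.1% with voom. A replicate block gave 837 genes at an unadjusted p under 0.05 and 0 past the threshold. The labels give no pairing. Same-numbered libraries had correlations of deviations of 0.08, 0.01 and 0.21, and differently numbered ones ran from -0.16 to 0.11, which does not settle a pairing. The filter of 1 FPKM left out Casp6, Casp8 and Gsdmd, and filters do not apply to Nlrp3 and Pycard. Counting limits Nlrp3 most, with 14 to 32 reads per library.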
